A study of Mus musculus with 12 samples.

Results

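The common gamma chain cytokine receptors were followed in mouse CD4 T cells through the 8 genes that encode the shared chain and its cytokine-specific partners: Il2rg, Il2rb, Il2ra, Il15ra, Il7r, Il4ra, Il21r and Il9r. They were taken by name from a table of 54532 entries, each name stood on 1 entry, and all 8 were among the 13393 genes with enough counts to be tested. RNA was measured in 12 libraries, 3 from each of 4 sorted subsets of freshly isolated, untreated CD4 T cells from combined spleen and lymph nodes. All mice were wildtype C57BL/6 carrying a Foxp3-GFP reporter, with a polyclonal T cell repertoire, and their age is not given in the sources used here. Anergic cells, which have met antigen but no longer respond to it, were gated as CD44high FOXP3- with CD73high, FR4high and NRP1+. Treg cells, the regulatory subset, were gated as FOXP3+ CD25+. Effector cells (Teff) were CD44high FOXP3- but CD73low and FR4low, and Naive cells were CD44low. CD25 is the protein of Il2ra, so Il2ra in any comparison with Treg cells is a check of that gate and not a finding.

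Cytokines of this family bind a receptor that holds the common gamma chain, encoded by Il2rg, and a partner chain that sets which cytokine is bound. IL-2 uses IL-2R beta (Il2rb) with the gamma chain, and CD25 (Il2ra) raises the affinity; IL-15 uses the same beta and gamma chains with IL-15R alpha (Il15ra). IL-7, IL-4, IL-21 and IL-9 each use a partner of their own (Il7r, Il4ra, Il21r and Il9r). The bound receptors signal through the kinases JAK1 and JAK3 to STAT transcription factors, and in T cells the pathway is known for survival, growth and the choice of helper fate. IL-7 maintains naive T cells, and Treg cells depend on IL-2 made by other cells.

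Whether the 3 libraries of a subset are from different mice is not in the labels. The p-values therefore describe the spread between these libraries alone, which may be technical. Libraries held 6909035 to 9527897 counts. A set of 6 abundant entries, ribosomal and other noncoding RNA, took 29.4 to 40.4% of the counts, with the highest share and the lowest TMM scaling factor (0.871) in Anergic library 3. Levels are given as CPM, the count of a gene relative to its library's TMM-scaled size, with the mean and SD of 3 libraries. Differences are log2 fold changes of the first-named over the second-named subset, with their SE. Foxp3, the factor that defines Treg cells, averaged 543 ± 16.3 CPM in Treg cells, against 18.2 ± 2.82 CPM in Anergic, 0.735 ± 0.331 CPM in Teff and 1.36 ± 0.222 CPM in Naive cells (SD, n = 3). The genes of CD73 (Nt5e), FR4 (Izumo1r) and NRP1 (Nrp1) averaged 256, 424 and 332.7 CPM in Anergic, 184, 309.5 and 253 CPM in Treg, 57.5, 73.8 and 62.8 CPM in Teff and 19.4, 49.8 and 3.46 CPM in Naive cells. The 8 T cell identity genes summed to 4445 to 4680 CPM in Anergic, 2635 to 2847 CPM in Treg, 2993 to 3334 CPM in Teff and 3096 to 3491 CPM in Naive libraries. Markers of natural killer and innate-like T cells (8 genes) summed to 43.3 to 48.5 CPM in Anergic, 4.23 to 6.33 CPM in Treg, 206 to 268 CPM in Teff and 8.41 to 11.03 CPM in Naive libraries. Their leading gene in Teff cells was Zbtb16, at 99.9 CPM. Klrk1, Klrb1c, Klrc1 and Klrd1 of the same list averaged 41.1, 38.9, 23.3 and 9.02 CPM in Teff cells. In Treg cells these genes averaged 0.143, 0.421, 0 and 0.118 CPM. Ncr1, which marks natural killer cells, averaged at most 0.0413 CPM in any subset. CD8 T cell markers (2 genes) summed to 3.71 to 17.1 CPM over all libraries, myeloid and dendritic cell markers (8 genes) to 6.00 to 15.4 CPM, and B cell markers (7 genes) to 180.3 to 498 CPM, most of it Ighm.

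In the GENCODE annotation of GRCm38 the family includes pairs of neighbours. Il2ra (chr2:11642807-11693193, plus strand) and Il15ra (chr2:11705290-11734317, plus strand) lie 12097 bp apart, and Il4ra (chr7:125552120-125579474, plus strand) and Il21r (chr7:125603429-125633570, plus strand) lie 23955 bp apart. Il7r (chr15:9505788-9530176, minus strand) and Il2rb (chr15:78479256-78495271, minus strand) share a chromosome only, and Il9r (chr11:32187541-32200279, minus strand) and Il2rg (chrX:101264378-101268255, minus strand) stand alone. All 8 are protein-coding. Of the Il2rg exon length 30.5% is shared with the same-strand entry Gm20489, which held 1 count in all libraries. Of the Il4ra exon length 9.51% is shared with the antisense entry Gm44876, which held 4 counts in all.

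The starts of Il7r and Il2ra are shown because Il2ra was high and Il7r low in Treg cells, and those of Il21r and Il4ra because the genes are neighbours whose levels are set beside each other in a ratio. Each window runs from 250 bases before the RefSeq start to 50 after it (GRCm38.p6), 5′ to 3′ on the gene's own strand, and the RefSeq start need not be the outermost GENCODE start. Capitals mark matches, on either strand, to TTCNNNGAA (STAT), TGANTCA (AP-1), GTAAACA (FOXO) or TGTGGT (RUNX). The windows lie at chr15:9529827-9530126 (minus strand), chr7:125603179-125603478, chr7:125552021-125552320 and chr2:11642542-11642841 (plus strand for the last 3). Of the 8 members 7 matched the RefSeq table by symbol, all but Il2rb.
Il7r: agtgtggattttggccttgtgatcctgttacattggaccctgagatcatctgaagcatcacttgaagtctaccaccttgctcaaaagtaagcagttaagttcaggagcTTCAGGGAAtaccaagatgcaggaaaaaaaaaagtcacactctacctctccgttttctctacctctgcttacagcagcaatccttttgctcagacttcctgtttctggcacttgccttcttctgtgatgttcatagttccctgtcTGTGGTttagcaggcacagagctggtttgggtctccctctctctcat
Il21r: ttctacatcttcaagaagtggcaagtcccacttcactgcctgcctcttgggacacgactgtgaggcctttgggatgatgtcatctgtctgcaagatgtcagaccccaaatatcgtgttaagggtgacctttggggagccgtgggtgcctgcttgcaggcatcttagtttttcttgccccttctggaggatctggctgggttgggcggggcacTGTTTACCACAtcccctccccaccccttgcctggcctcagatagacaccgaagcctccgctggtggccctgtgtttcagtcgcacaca
Il4ra: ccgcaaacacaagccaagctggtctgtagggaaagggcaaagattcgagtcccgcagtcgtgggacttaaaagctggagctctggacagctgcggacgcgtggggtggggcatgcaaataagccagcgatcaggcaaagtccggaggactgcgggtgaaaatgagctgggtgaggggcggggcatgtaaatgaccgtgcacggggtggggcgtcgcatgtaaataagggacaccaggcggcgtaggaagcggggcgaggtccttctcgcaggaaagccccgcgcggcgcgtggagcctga
Il2ra: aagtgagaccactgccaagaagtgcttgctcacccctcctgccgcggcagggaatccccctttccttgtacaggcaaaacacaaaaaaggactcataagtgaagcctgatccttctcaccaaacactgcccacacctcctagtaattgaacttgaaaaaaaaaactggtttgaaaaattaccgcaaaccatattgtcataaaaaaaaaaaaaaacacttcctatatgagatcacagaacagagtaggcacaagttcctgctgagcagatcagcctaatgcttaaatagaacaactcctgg
The Il7r window holds a STAT match 142 bases before the start and a RUNX match 3 bases after it. In the Il21r window a FOXO match begins 38 bases before the start and overlaps a RUNX match. The windows of Il4ra and Il2ra hold none of the 4 motifs. Of the 32851 promoter windows of this length in the RefSeq table, 8.30% hold the STAT, 7.81% the AP-1, 3.65% the FOXO and 16.8% the RUNX motif, so single matches are frequent. Among the other members, Il2rg and Il9r hold a RUNX match and the second of the Il15ra windows an AP-1 match. A match describes these letters only.

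The shared gamma chain gene Il2rg was the least variable of the family. It had 127, 148 and 159.5 CPM in Anergic libraries, 155, 162 and 177 CPM in Treg, 153, 189.6 and 176 CPM in Teff and 166, 178 and 190.5 CPM in Naive libraries. Anergic libraries overlapped those of Treg and Teff cells but not those of Naive cells, and the other subsets overlapped one another. Il2rg was lower in Anergic than in Naive cells by 1.23-fold (log2 difference -0.30, SE 0.0865, adjusted p = 0.00636). It was also lower in Anergic than in Teff cells by 1.19-fold (log2 difference -0.26, SE 0.0862, adjusted p = 0.0292). That call was lost when only the compared subsets were fitted (adjusted p = 0.0548), and without Anergic replicate 1 (0.148), Anergic replicate 2 (0.0506), Teff replicate 2 (0.144) or Teff replicate 3 (0.0854), in a range of 0.00110 to 0.148 over 22 alternatives. Against Treg cells the Anergic value did not pass (log2 difference -0.19, SE 0.0861, adjusted p = 0.105), although it passed with total-count scaling (0.00319) and without Anergic replicate 3 (0.0345). The 3 differences among Treg, Teff and Naive cells were at most 0.11 on the log2 scale and did not pass. In bulk RNA, fewer cells that make a transcript and less of it in each cell cannot be told apart, here and in every result that follows.

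Il2rb, the signalling chain shared by IL-2 and IL-15, separated Naive cells from the other subsets. It had 307, 299 and 303 CPM in Anergic libraries, 567, 547 and 553 CPM in Treg, 545, 543 and 543 CPM in Teff and 19.03, 13.9 and 14.7 CPM in Naive libraries. Anergic libraries formed a level of their own, below every Treg and Teff library and above every Naive library. Il2rb was lower in Anergic than in Teff cells by 1.80-fold (log2 difference -0.84, SE 0.0666, adjusted p = 4.67e-10) and lower than in Treg cells by 1.84-fold (log2 difference -0.88, SE 0.0665, adjusted p = 2.08e-10). Against Naive cells it was higher by 19.1-fold in Anergic (adjusted p = 3.74e-21), 35.0-fold in Treg (adjusted p = 1.55e-22) and 34.3-fold in Teff cells (adjusted p = 2.75e-22). Treg and Teff cells did not differ by the test (log2 difference 0.03, SE 0.0655, adjusted p = 0.777), though every Treg library was above every Teff library. Beside this, the natural killer and innate-like markers, cell types that carry much IL-2R beta, were higher in Teff than in Treg libraries (206 to 268 against 4.23 to 6.33 CPM), and their part in the Teff level was not tested.

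Il2ra, which encodes CD25, marked the Treg gate and also ordered the other subsets. Treg libraries had 706, 663 and 761 CPM. Anergic libraries had 11.3, 13.9 and 20.6 CPM, Teff libraries 45.1, 38.8 and 49.6 CPM, and Naive libraries 3.03, 1.61 and 1.97 CPM. No subset overlapped another. The Treg value, 710 ± 48.9 CPM (SD, n = 3), reads as the check of the CD25 sort. Outside that gate, Il2ra was lower in Anergic than in Teff cells by 2.94-fold (log2 difference -1.56, SE 0.142, adjusted p = 6.20e-09). Both CD44high subsets were above Naive cells, Anergic by 6.85-fold (log2 difference 2.78, SE 0.249, adjusted p = 1.84e-09) and Teff by 20.2-fold (log2 difference 4.33, SE 0.209, adjusted p = 3.80e-14). Foxp3 ran the other way between Anergic and Teff cells, at 18.2 ± 2.82 CPM in Anergic and 0.735 ± 0.331 CPM in Teff cells (log2 difference 4.60, SE 0.212, adjusted p = 2.84e-14). The 7 genes of the Treg marker list summed to 488 to 661 CPM in Anergic and 1716 to 1798 CPM in Treg libraries. The sums were 180.0 to 185 CPM in Teff and 57.8 to 59.2 CPM in Naive libraries. Most of the Anergic sum was Ikzf2, at 376.5 CPM, against 532 CPM in Treg cells. Tnfrsf18 and Capg averaged 68.0 and 59.8 CPM in Anergic and 179.5 and 134 CPM in Treg cells. Foxp3, Gpr83 and Lrrc32 averaged 18.2, 14.1 and 4.05 CPM in Anergic and 543, 113 and 232 CPM in Treg cells. The part of these markers in the Il2ra level was not tested. Gm37881, a GENCODE entry inside Il2ra on the same strand that shares no exon with it, had 2, 1 and 1 counts in Anergic, 98, 73 and 82 in Treg, 15, 3 and 7 in Teff and 0 in all Naive libraries.

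Il15ra, the high-affinity IL-15 chain, was scarce in every subset and lowest in Naive cells. It had 10.1, 8.45 and 8.25 CPM in Anergic, 7.38, 6.08 and 6.00 CPM in Treg, 8.12, 8.30 and 7.90 CPM in Teff and 3.72, 3.97 and 2.73 CPM in Naive libraries, from 77 counts in all Naive to 220 in all Anergic libraries. Every library of the other subsets was above every Naive library. Il15ra was higher than in Naive cells by 2.55-fold in Anergic (log2 difference 1.35, SE 0.206, adjusted p = 7.91e-06), 1.86-fold in Treg (0.89, SE 0.212, adjusted p = 0.00193) and 2.31-fold in Teff cells (1.21, SE 0.209, adjusted p = 5.83e-05). Among Anergic, Treg and Teff cells no difference passed. The nearest was Anergic against Treg (log2 difference 0.46, SE 0.183, adjusted p = 0.0611), whose libraries did not overlap and which passed with limma voom (0.0483) and without Treg replicate 1 (0.0493). The adjoining Il2ra, which the Treg gate selects for, differed between the same subsets by -5.55 on the log2 scale in Anergic against Treg, and by 4.00 in Treg against Teff, where Il15ra differed by -0.32.

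**Figure D1:**
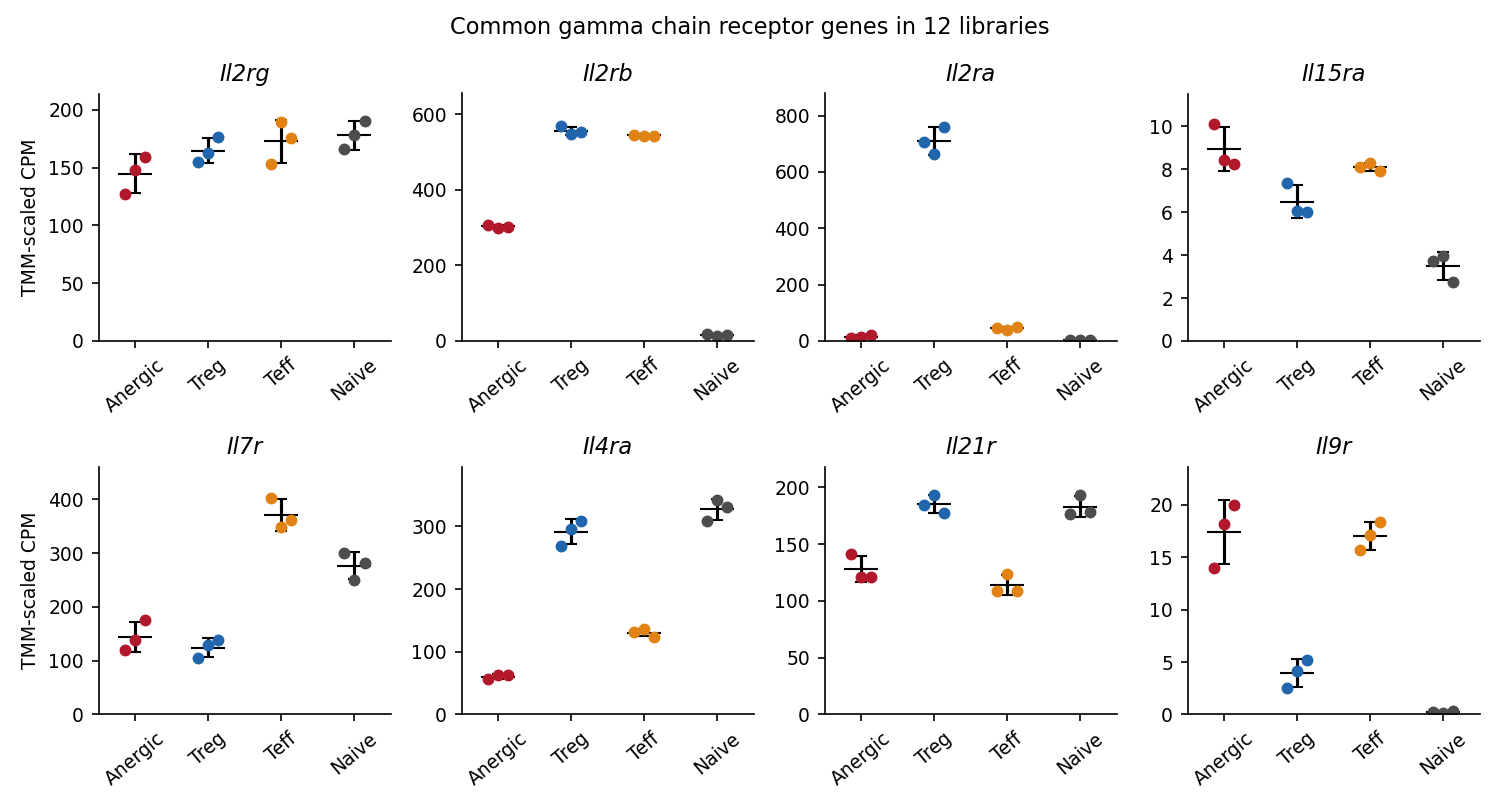
TMM-scaled CPM (y axis, starting at 0, scale set for each gene) of the 8 receptor genes in the 3 libraries of each subset; points are libraries, the horizontal bar is the mean and the error bar 1 SD. Il2rg lies between 127 and 190.5 CPM throughout, whereas Il2rb in Naive cells stays at or below 19.03 CPM and Il4ra in Anergic cells at or below 63.2 CPM.

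Il7r, the IL-7 receptor alpha chain (CD127) that maintains naive and memory T cells, was low in Anergic and Treg cells alike. It had 119.9, 138 and 175 CPM in Anergic and 105, 129 and 138 CPM in Treg libraries, against 403, 348 and 361 CPM in Teff and 299.7, 250.3 and 281 CPM in Naive libraries. Anergic and Treg libraries overlapped, and each of them was below every Teff and Naive library. Il7r was lower in Anergic than in Teff cells by 2.57-fold (log2 difference -1.36, SE 0.108, adjusted p = 5.46e-10) and lower than in Naive cells by 1.92-fold (log2 difference -0.94, SE 0.109, adjusted p = 1.21e-07). In Treg cells it was lower than in Teff cells by 2.99-fold (log2 difference -1.58, SE 0.109, adjusted p = 3.23e-11) and lower than in Naive cells by 2.23-fold (log2 difference -1.16, SE 0.109, adjusted p = 6.81e-09). Teff cells were above Naive cells by 1.34-fold (log2 difference 0.42, SE 0.105, adjusted p = 0.00275). Anergic against Treg did not pass (log2 difference 0.22, SE 0.110, adjusted p = 0.146), but it passed without Anergic replicate 1 (0.0173) and without the filter on low counts (0.0209). Low CD127 is used to mark human Treg cells at the protein level. The sum of the 6 mast cell and group 2 innate lymphoid markers was also highest in Teff libraries, at 135 to 173 CPM. It was 57.4 to 65.4 CPM in Anergic, 52.9 to 62.7 CPM in Treg and 6.82 to 12 CPM in Naive libraries. Almost all of the Teff sum was Rora, at 146 CPM, while the mast cell gene Cpa3 averaged at most 0.119 CPM in any subset. In Treg cells Rora averaged 35.3 CPM. Il1rl1, Klrg1 and Kit of the same list ran the other way. They averaged 11.04, 9.59 and 1.41 CPM in Treg cells, against 3.44, 0.54 and 0.245 CPM in Teff cells. Naive cells had 277 ± 24.9 CPM of Il7r (SD, n = 3) with the sum of those markers at its lowest, and the part of the markers in the Teff level was not tested.

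Il4ra, the chain that binds IL-4 and, with IL-13R alpha 1, IL-13, gave the lowest Anergic level relative to Naive cells in the family. It had 56.0, 63.2 and 62.3 CPM in Anergic, 269, 296 and 309 CPM in Treg, 132, 136 and 124 CPM in Teff and 308, 342 and 332 CPM in Naive libraries. Anergic libraries were below every other library, Teff libraries came next, and Treg and Naive libraries overlapped at the top. Compared with Teff cells, Anergic cells had 2.16-fold less Il4ra (log2 difference -1.11, SE 0.0753, adjusted p = 3.15e-11). The difference was 4.82-fold from Treg cells (-2.27, SE 0.0746, adjusted p = 7.08e-17) and 5.41-fold from Naive cells (-2.44, SE 0.0749, adjusted p = 4.38e-18). Treg cells exceeded Teff cells by 2.23-fold (log2 difference 1.16, SE 0.0700, adjusted p = 3.04e-12), and Teff cells were below Naive cells by 2.50-fold (log2 difference -1.32, SE 0.0703, adjusted p = 2.31e-13). Treg against Naive did not pass (log2 difference -0.17, SE 0.0676, adjusted p = 0.0604). That value lay near the threshold, and 9 of 22 alternatives put it below, among them DESeq2 (0.0385), limma voom (0.0360) and the leaving out of Anergic replicate 1 (0.0369), Treg replicate 3 (0.0434) or Naive replicate 1 (0.0335).

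Il21r, the receptor chain for IL-21, moved less than its neighbour Il4ra. It had 141, 121 and 121 CPM in Anergic, 184, 194 and 178 CPM in Treg, 109, 124 and 109 CPM in Teff and 177, 193 and 179 CPM in Naive libraries. The subsets formed a lower pair, Anergic and Teff, and an upper pair, Treg and Naive, with overlap inside each pair and none between pairs. Il21r was lower in Anergic than in Treg cells by 1.45-fold (log2 difference -0.54, SE 0.0726, adjusted p = 2.76e-06) and lower than in Naive cells by 1.43-fold (log2 difference -0.52, SE 0.0731, adjusted p = 2.56e-06). Treg cells exceeded Teff cells by 1.63-fold (log2 difference 0.70, SE 0.0731, adjusted p = 4.28e-08), and Teff cells were below Naive cells by 1.61-fold (log2 difference -0.68, SE 0.0736, adjusted p = 6.07e-08). Inside the pairs neither difference passed, with 0.17 ± 0.0742 SE for Anergic against Teff (adjusted p = 0.106) and 0.02 ± 0.0717 SE for Treg against Naive (adjusted p = 0.893). Without Teff replicate 2 the Anergic value passed (log2 fold change 0.22, adjusted p = 0.0463). Between Anergic and Teff cells the adjoining genes thus had log2 fold changes of -1.11 for Il4ra and 0.17 for Il21r.

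Il9r, the IL-9 receptor chain, was found mainly in the CD44high FOXP3- cells. It had 14, 18.2 and 19.97 CPM in Anergic, 2.53, 4.18 and 5.17 CPM in Treg, 15.7, 17.1 and 18.4 CPM in Teff and 0.276, 0.124 and 0.304 CPM in Naive libraries. Anergic and Teff libraries overlapped fully, all were above every Treg library, and Naive libraries were lowest with 5 counts among them. Il9r was higher in Anergic than in Treg cells by 4.43-fold (log2 difference 2.15, SE 0.204, adjusted p = 1.06e-08) and lower in Treg than in Teff cells by 4.35-fold (log2 difference -2.12, SE 0.205, adjusted p = 1.26e-08). Anergic and Teff cells did not differ by the test (log2 difference 0.03, SE 0.170, adjusted p = 0.930). Against Naive cells the ratio of scaled counts was 75.7 in Anergic (exact 95% interval 32.2 to 235), 17 in Treg (7.05 to 53.5) and 74.5 in Teff cells (31.7 to 231), intervals that cover counting error only. These differences from Naive cells passed the test (adjusted p = 6.44e-13 for Anergic, 2.00e-07 for Treg and 1.32e-12 for Teff). Mast cells also carry this receptor. Their genes Cpa3, Ms4a2 and Kit averaged 0, 0.123 and 0.742 CPM in Anergic cells and 0.119, 0.0425 and 0.245 CPM in Teff cells. The other genes of the mast cell and group 2 innate lymphoid list were Il1rl1, Klrg1 and Rora. They averaged 1.19, 0.329 and 59.3 CPM in Anergic and 3.44, 0.54 and 146 CPM in Teff cells. Their averages were 11.04, 9.59 and 35.3 CPM in Treg and 0.0506, 0 and 9.09 CPM in Naive cells. The part of other cell types in the Il9r level was not tested.

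Across the family, the receptor transcripts called in Anergic against Teff cells were all lower in Anergic cells. Of the 8 genes 5 were lower (Il2ra, Il2rb, Il2rg, Il7r and Il4ra) and 0 were higher, where 12.7% of all tested genes were lower and 13.9% higher. With edgeR 1 gene was higher at an unadjusted p under 0.05 (Il21r), and DESeq2 and limma voom also called 0. The lower call of Il2rg was lost in 5 of 22 alternatives, and without Teff replicate 2 Il21r was called higher (adjusted p = 0.0463). The median log2 fold change of the 8 was -0.55, against 0.000953 over all tested genes. Against Treg cells 4 were lower and 1 higher in Anergic cells (3 lower and 1 higher without Il2ra), beside 15.3% lower and 15.6% higher of all genes. Against Naive cells all 8 passed, 4 higher (Il2ra, Il2rb, Il15ra and Il9r) and 4 lower (Il2rg, Il7r, Il4ra and Il21r), beside 25% higher and 21.3% lower of all genes. Their medians were -0.36 against Treg and 0.53 against Naive cells, over medians of 8.02e-05 and 0.00598 for all genes. Without Il2ra, a step added after seeing the data, the median of the other 7 was -0.26 against Teff, -0.19 against Treg and -0.30 against Naive cells.

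The comparisons without Anergic cells called 5, 5 and 7 members. In Treg against Teff cells 3 were higher and 2 lower (2 and 2 without Il2ra), beside 15% higher and 14.1% lower of all genes, with a median of -0.02 (-0.07 without Il2ra) over 0.00795 for all genes. In Treg against Naive cells 4 were higher and 1 lower (3 and 1 without Il2ra), beside 19% and 13.9%, with a median of 0.45 (0.02 without Il2ra) over 0.00267. In Teff against Naive cells 5 were higher and 2 lower, beside 19.2% and 15.7%, with a median of 0.81 (0.42 without Il2ra) over 0.00550. The comparisons share libraries, so their counts are not independent of one another. Il2rb, Il2ra, Il15ra and Il9r were each higher than in Naive cells in all 3 other subsets.

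**Figure D2:**
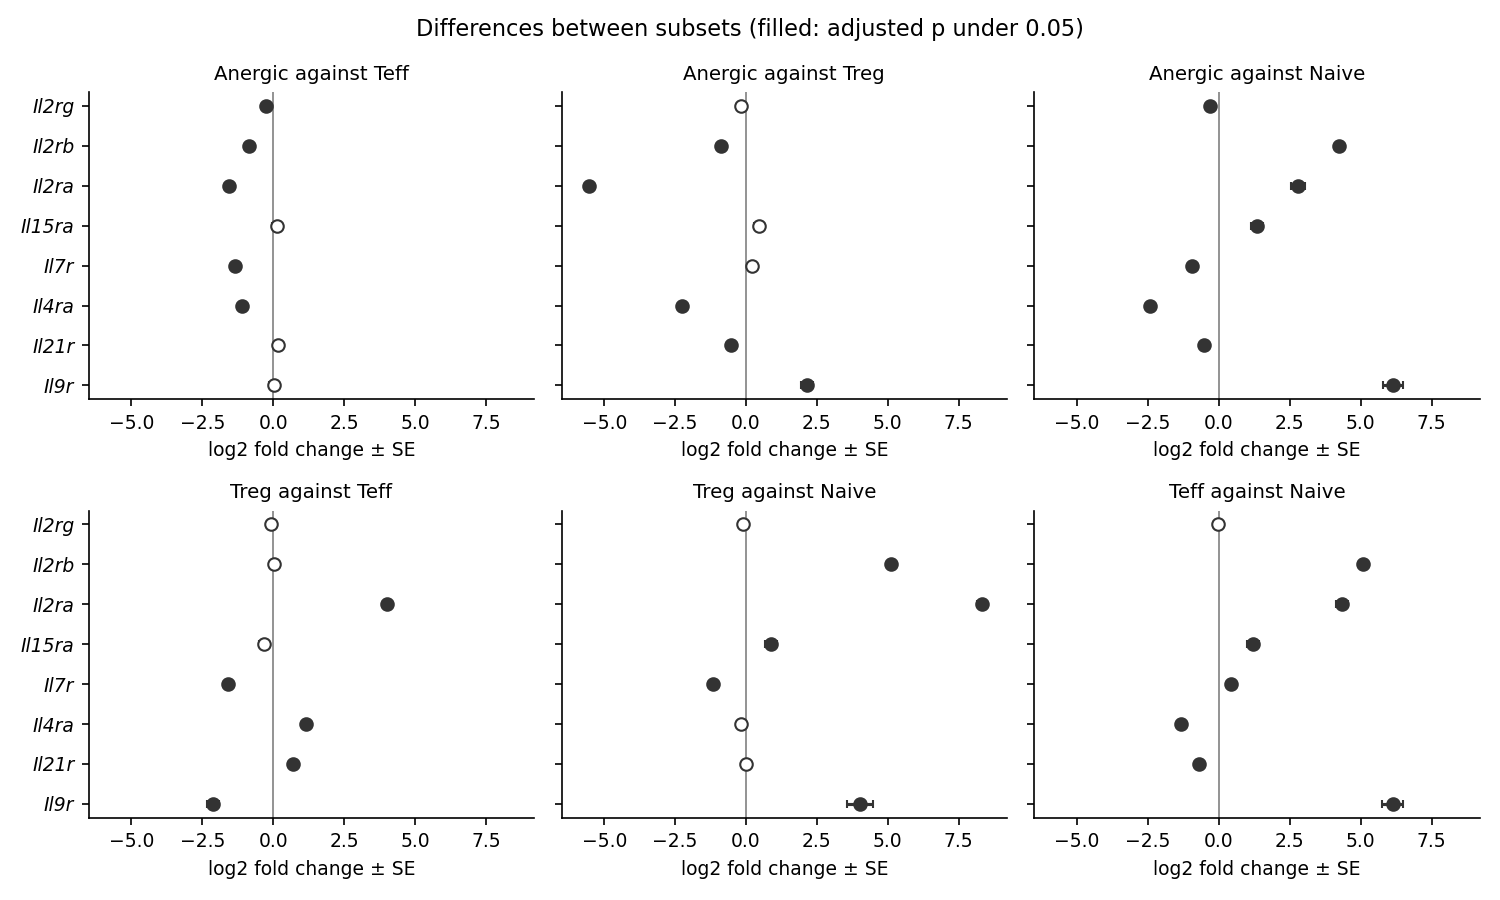
Log2 fold changes (x axis) of the 8 receptor genes (y axis) in the 6 comparisons, first-named over second-named subset, with 1 SE; filled points have an adjusted p under 0.05. In Anergic against Teff the 5 filled points lie between -1.56 and -0.26, and in Anergic against Naive the points run from -2.44 for Il4ra to 6.16 for Il9r.

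Levels of different genes were compared per kilobase of exon. In Anergic cells the order ran Il2rb (70.6 CPM per kilobase), Il2rg (60.6), Il21r (38.4), Il7r (31.0), Il4ra (10.1), Il9r (3.52), Il2ra (2.67) and Il15ra (2.01). Treg cells had Il2rb (129.6) and Il2ra (124) at the top, then Il2rg (69.0), Il21r (55.7), Il4ra (48.6), Il7r (26.6), Il15ra (1.46) and Il9r (0.801). In Teff cells Il2rb (127) stood above Il7r (79.5), Il2rg (72.4), Il21r (34.3), Il4ra (21.8), Il2ra (7.79), Il9r (3.44) and Il15ra (1.82). Naive cells were led by Il2rg (74.6), Il7r (59.4), Il21r (55.03) and Il4ra (54.5), far above Il2rb (3.70), Il15ra (0.781), Il2ra (0.386) and Il9r (0.0474). The libraries of 7 neighbouring pairs in these orders overlapped: Il21r with Il7r, Il9r with Il2ra and Il2ra with Il15ra in Anergic cells, Il2rb with Il2ra in Treg cells, Il7r with Il2rg in Teff cells, and Il7r with Il21r and Il21r with Il4ra in Naive cells. All other neighbours were apart in every library. The length chosen also moved the order, since per kilobase of the longest transcript Il2rg (86.6) passed Il2rb (72.2) and Il15ra (3.86) passed Il2ra (3.46) in Anergic cells, and Il2ra (161) passed Il2rb (133) in Treg cells. With the exon shared with Gm20489 left out, Il2rg came to 87.2 in Anergic, 99.3 in Treg, 104 for Teff and 107 for Naive cells. This alternative, chosen after seeing the data, put Il2rg above Il2rb (70.6) in Anergic cells and above Il7r (79.5) in Teff cells.

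**Figure D3:**
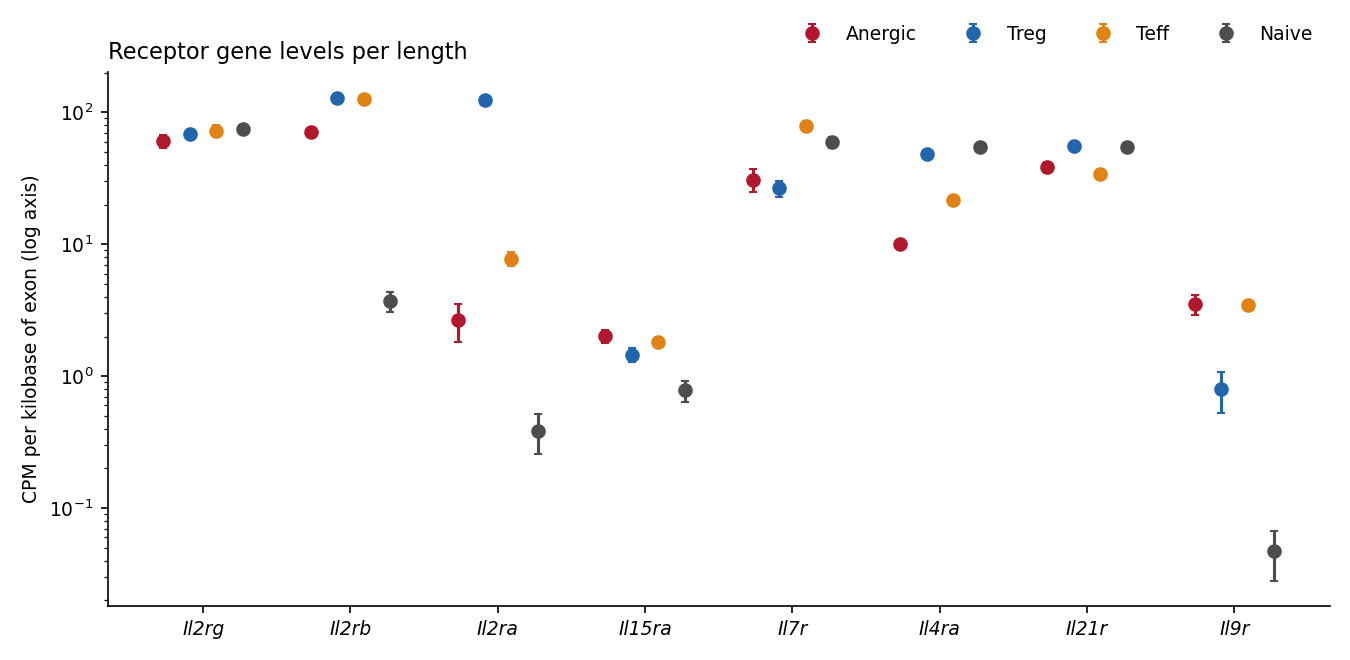
Mean level per gene in CPM per kilobase of exon (y axis, log scale) for each subset, with 1 SD over 3 libraries. Il2rg stays between 60.6 and 74.6, whereas Il2ra spans 0.386 in Naive to 124 in Treg cells.

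Ratios of receptor genes within a library do not depend on the scaling. A ratio with Il2ra in Treg cells is, like the gene itself, a check of the CD25 gate and not a finding. Il2ra per kilobase was 4.69 times Il7r in Treg cells (4.20 to 5.47 over libraries), against 0.0846 in Anergic (0.0769 to 0.0962), 0.0977 in Teff (0.0911 to 0.112) and 0.00629 in Naive cells (0.00525 to 0.00826). Anergic and Teff libraries overlapped in that ratio although both genes were lower in Anergic than in Teff cells. The ratio of Il4ra to Il21r was lowest in Anergic cells at 0.263 (0.220 to 0.289), against 0.871 (0.810 to 0.963) in Treg, 0.637 (0.609 to 0.671) for Teff and 0.991 (0.966 to 1.03) for Naive cells. No Anergic library reached any other subset. Il2rb stood at 1.17 times Il2rg in Anergic (1.056 to 1.35), 1.88 in Treg (1.74 to 2.04), 1.76 for Teff (1.59 to 1.99) and 0.0493 for Naive cells (0.0430 to 0.0639). Against the shared chain, Il7r was at 0.507 in Anergic, 0.384 in Treg, 1.10 for Teff and 0.795 for Naive cells, and Il4ra at 0.167 in Anergic, 0.704 in Treg, 0.302 for Teff and 0.732 for Naive cells. The ratios are given as descriptions with no test. Another gene length moves a ratio by the same factor in every library and leaves the differences between subsets as they are. With the longest transcript, a length chosen for the ratios after seeing the data, Il2rb stood at 0.837 times Il2rg in Anergic, 1.34 in Treg, 1.26 for Teff and 0.0352 for Naive cells, and Il4ra at 0.226 times Il21r in Anergic, 0.748 in Treg, 0.547 for Teff and 0.851 for Naive cells.

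**Figure D4:**
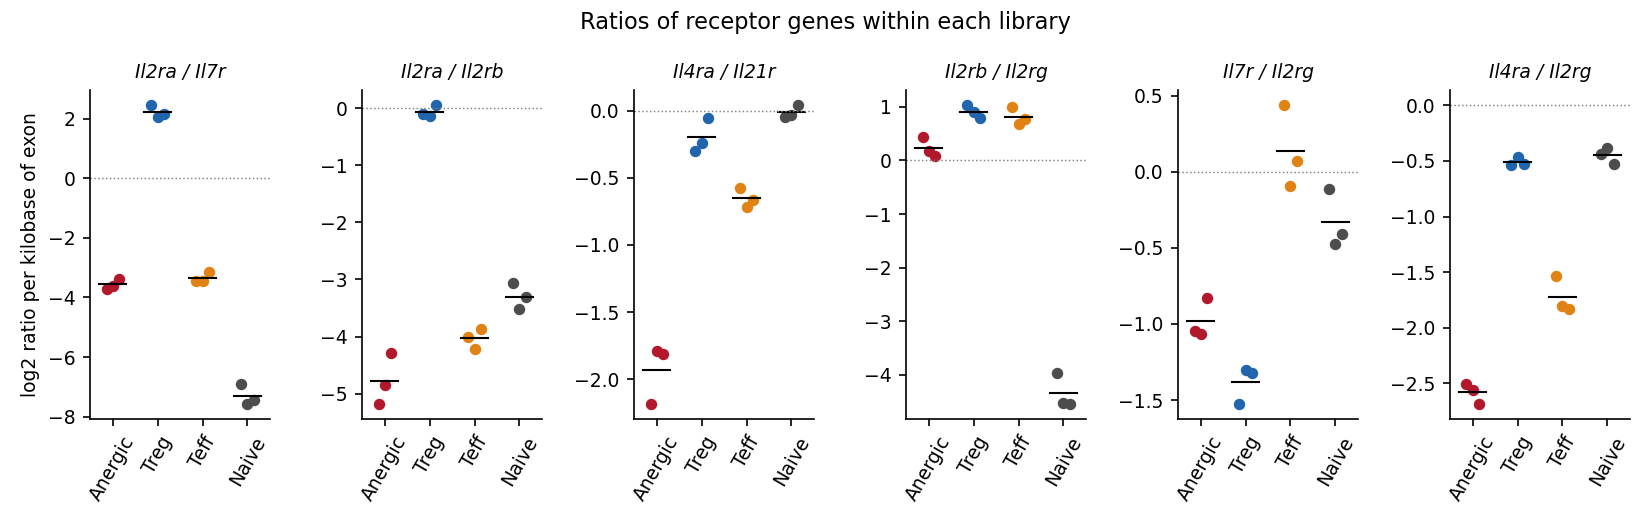
Log2 ratio of 2 receptor genes per kilobase of exon (y axis) in each library, with the subset mean as a bar; the dotted line marks equal levels. The ratio of Il4ra to Il21r is lowest in the 3 Anergic libraries, and that of Il2ra to Il7r is above 0 only in Treg libraries, whose gate selects for Il2ra.

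Ligand transcripts were found mainly in the CD44high FOXP3- subsets. Il21, the IL-21 gene of follicular helper cells, had 69.9, 45.9 and 41.5 CPM in Anergic, 0.303, 0.633 and 0.235 CPM in Treg, 3.13, 5.70 and 6.12 CPM in Teff and 0.138, 0.372 and 0.455 CPM in Naive libraries. Every Anergic library was above every other library, and Il21 was higher in Anergic than in Teff cells by log2 fold change 3.41 ± 0.209 SE (adjusted p = 5.77e-12), where Il21r did not pass. Il2, the T cell growth factor, had 1.76, 1.41 and 1.20 CPM in Anergic and 2.32, 1.86 and 1.91 CPM in Teff libraries, and was at 0 in all Naive and in 2 of the 3 Treg libraries. Il4 had 3.06, 6.11 and 6.79 CPM in Anergic and 4.99, 8.30 and 6.50 CPM in Teff libraries, and was at 0 in all Treg and in 2 of the 3 Naive libraries. Neither differed between Anergic and Teff cells by the test (adjusted p = 0.441 for Il2 and 0.520 for Il4). Of the 6 ligands 3 had enough counts to be tested. Of those 1 was higher in Anergic than in Teff cells, all 3 were higher in Anergic than in Treg and than in Naive cells, all 3 were lower in Treg than in Teff cells, and all 3 were higher in Teff than in Naive cells. The shares of all tested genes in these directions were, in the same order, 13.9%, 15.6%, 25%, 14.1% and 19.2%. Il7 and Il15 averaged at most 0.280 and 0.603 CPM in any subset, and Il9 had 0 counts in every library.

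Of the partner chains outside the family, Crlf2, which joins Il7r in the TSLP receptor, had enough counts. It averaged 39.7 ± 0.965 CPM in Anergic, 27.4 ± 1.116 CPM in Treg, 25.9 ± 1.91 CPM in Teff and 19.5 ± 0.163 CPM in Naive cells (SD, n = 3). It was higher in Anergic than in Teff (log2 difference 0.62, SE 0.0892, adjusted p = 7.57e-06), Treg (0.54, SE 0.0879, adjusted p = 3.51e-05) and Naive cells (1.02, SE 0.0938, adjusted p = 2.66e-09). Where Il7r was lower in Anergic than in Teff cells, Crlf2 was thus higher. Crlf2 also passed in Treg against Naive (log2 fold change 0.49) and Teff against Naive cells (0.40). Il13ra1, the partner of Il4ra for IL-13, averaged 0.825 CPM in Anergic, 0.691 CPM in Treg and 0 CPM in Teff and Naive cells and was not tested.

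The kinase and STAT genes were higher in Anergic than in Teff cells in 4 of 7 cases, beside 13.9% of all tested genes. Jak3, the kinase bound to the gamma chain, averaged 187 ± 17.4 CPM in Anergic, 155 ± 2.06 CPM in Treg, 125 ± 3.19 CPM in Teff and 97.8 ± 4.87 CPM in Naive cells (SD, n = 3). It was higher in Anergic cells than in Teff (log2 difference 0.58, SE 0.0682, adjusted p = 4.37e-07), Treg (0.27, SE 0.0672, adjusted p = 0.00286) and Naive cells (0.93, SE 0.0698, adjusted p = 7.44e-11). Stat5a, a main STAT of IL-2 and IL-7, averaged 68.3 CPM in Anergic, 93.7 CPM in Treg, 46.0 CPM in Teff and 59.6 CPM in Naive cells, and Stat3 and Stat5b were the other genes higher in Anergic than in Teff cells (log2 fold changes 0.27 and 0.30). With total-count scaling 2 of the 7 were called there, both higher. Against Treg cells Jak3 was higher and Stat5a lower in Anergic cells, beside 15.6% higher and 15.3% lower of all tested genes. With total-count scaling 5 of the 7 were lower there and none higher. Against Naive cells Jak3, Stat3 and Stat5a were higher in Anergic cells and Jak1 lower, beside 25% higher and 21.3% lower of all tested genes. Treg cells had 6 of the 7 higher than Teff cells (beside 15% of all tested genes), and 4 higher and 1 lower (Jak1) than Naive cells (beside 19% and 13.9%). Teff cells had 1 higher (Jak3) and 3 lower (Jak1, Stat5a and Stat5b) than Naive cells, beside 19.2% and 15.7%. Il2rg, which recruits Jak3, was the member with the smallest spread over the libraries, whereas Jak3 was called in every comparison in the main fit. The higher call of Jak3 in Anergic against Treg cells was not kept with total-count scaling.

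Among 5 feedback inhibitors that cytokine signalling induces, Cish, Socs1 and Socs2 were higher in Treg cells than in each other subset. Cish, a STAT5 target that dampens IL-2 receptor signalling, had 22.6, 22.3 and 20.8 CPM in Anergic, 146, 138 and 129.7 CPM in Treg, 29.3, 34.2 and 25.0 CPM in Teff and 8.69, 10.9 and 10.0 CPM in Naive libraries. No subset overlapped another, and Cish was lower in Anergic than in Teff cells (log2 difference -0.43, SE 0.106, adjusted p = 0.00344) and in Treg cells (-2.65, SE 0.0942, adjusted p = 2.77e-16). Socs2 had 6.35, 2.70 and 1.73 CPM in Anergic, 28.7, 27.6 and 30.0 CPM in Treg, 13.5, 10.04 and 11.6 CPM in Teff and 0, 0.248 and 0 CPM in Naive libraries. It was lower in Anergic than in Teff cells (log2 difference -1.68, SE 0.267, adjusted p = 2.91e-05). Of the 5 inhibitors 4 were lower in Anergic than in Teff cells (Socs1 did not pass, adjusted p = 0.308), all 5 were lower in Anergic than in Treg cells, and against Naive cells 2 were higher (Cish and Socs2) and 2 lower (Socs3 and Ptpn2). Treg cells had 4 of the 5 higher than Teff and 3 higher than Naive cells, and Teff cells had 2 higher and 1 lower than Naive cells. The shares of all tested genes in these directions were, in the same order, 12.7%, 15.3%, 25% and 21.3% for Anergic cells. They were 15% and 19% for Treg cells, and 19.2% and 15.7% for Teff cells. Where 0 members of a pathway list were called in a direction by edgeR, 0 had an unadjusted p under 0.05 in that direction, and DESeq2 and limma voom called 0.

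Genes known to be induced by these cytokines were mostly lower in Anergic cells. Pim1, a kinase induced through STAT5, averaged 85.7 ± 20.2 CPM in Anergic, 339.7 ± 9.69 CPM in Treg, 134 ± 1.89 CPM in Teff and 123 ± 9.05 CPM in Naive cells (SD, n = 3). Bcl2, the survival gene raised by IL-2 and IL-7, averaged 62.1 ± 8.25 CPM in Anergic, 219.9 ± 10.1 CPM in Treg, 89.9 ± 17.2 CPM in Teff and 139.6 ± 7.83 CPM in Naive cells (SD, n = 3). Both were lower in Anergic than in Teff cells (log2 difference -0.64, SE 0.102, adjusted p = 2.80e-05 for Pim1, and -0.54 ± 0.105, adjusted p = 0.000354 for Bcl2). Of the 8 genes 6 were lower in Anergic than in Teff cells, Mcl1 and Pim2 being the others (log2 fold changes 0.01 and -0.04). Against Treg cells 7 were lower and 1, Pim2, higher, and against Naive cells 7 were lower. Of all tested genes 12.7% were lower in Anergic than in Teff cells. Against Treg cells 15.3% were lower and 15.6% higher, and against Naive cells 21.3% were lower. Myc, a growth regulator, averaged 26.9 CPM in Anergic, 96.8 CPM in Treg, 42.0 CPM in Teff and 80.0 CPM in Naive cells. Treg cells had 4 higher (Bcl2, Mcl1, Pim1 and Myc) and 2 lower (Pim2 and Ccnd3) than Teff cells, beside 15% and 14.1% of all tested genes. The counts against Naive cells were the same, beside 19% and 13.9%. Teff cells had 1 higher (Ccnd3) and 3 lower (Bcl2, Mcl1 and Myc) than Naive cells, beside 19.2% and 15.7%. Many signals besides these cytokines act on these genes, so their levels do not measure signalling through the receptors.

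**Figure D5:**
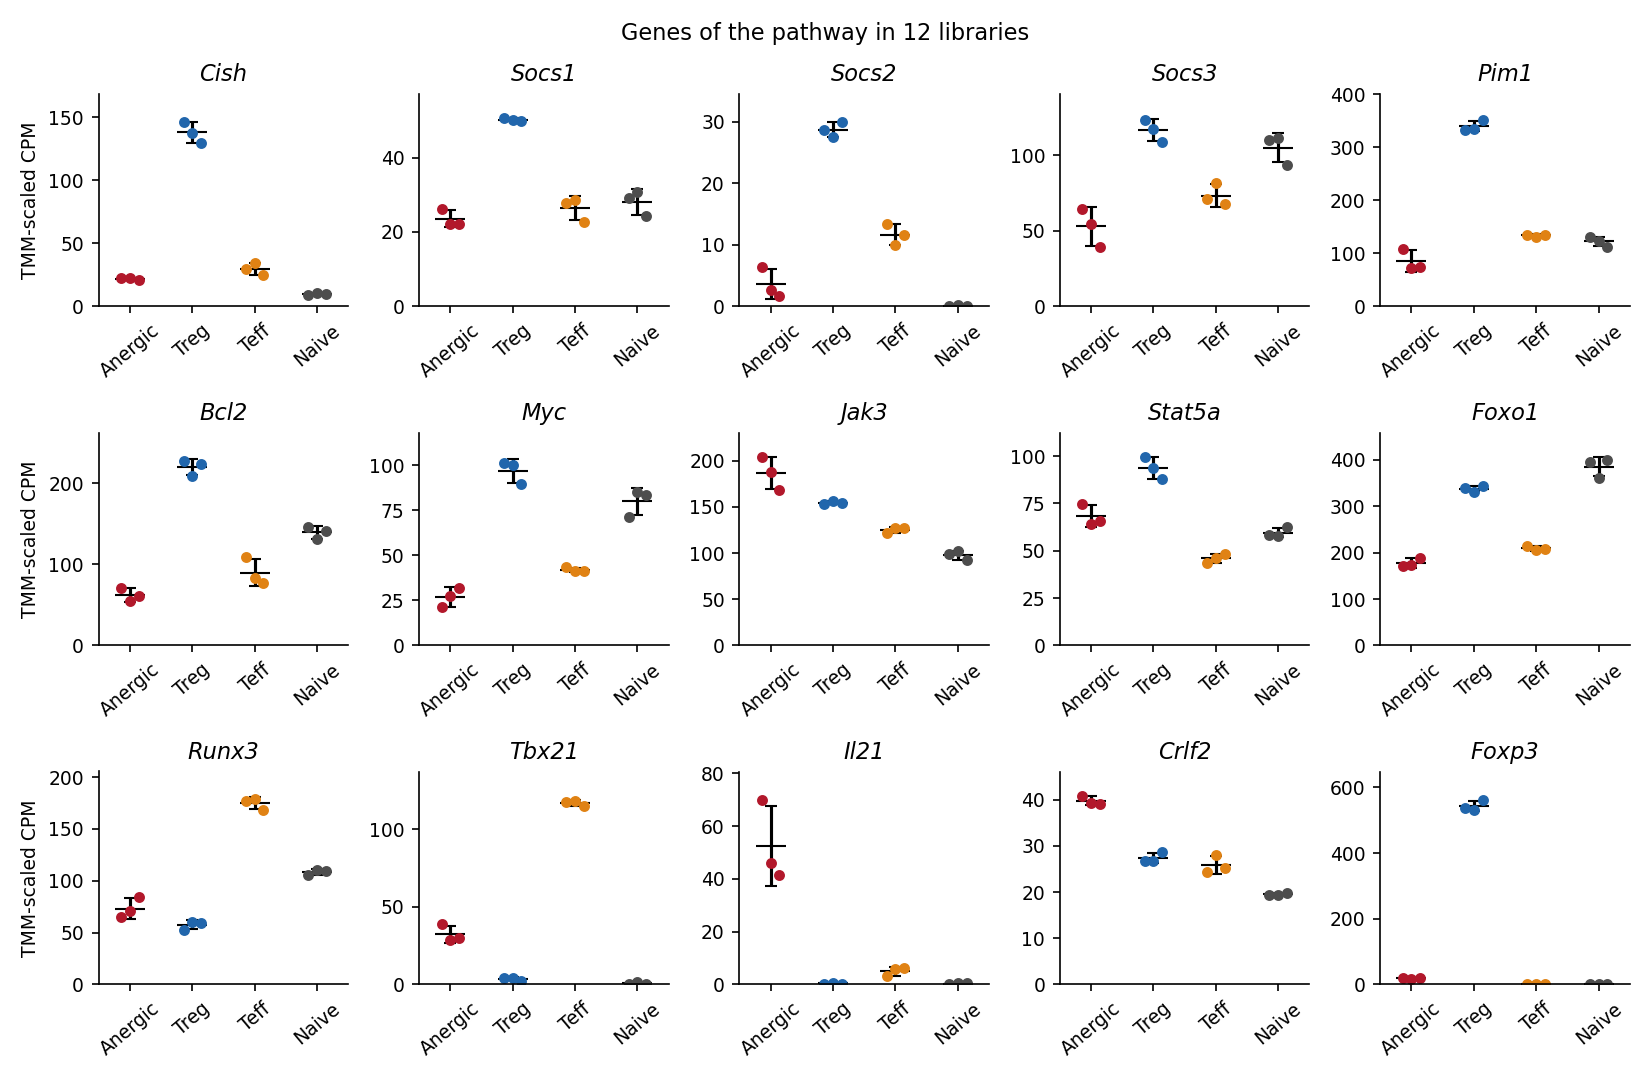
TMM-scaled CPM (y axis, starting at 0, scale set for each gene) of 15 genes of the pathway in the 3 libraries of each subset; points are libraries, the horizontal bar is the mean and the error bar 1 SD. Cish, Socs1, Socs2, Pim1 and Bcl2 are highest in Treg libraries, Il21 and Crlf2 in Anergic libraries, and Runx3 and Tbx21 in Teff libraries.

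Of 12 transcription factors known to act on the receptor genes, Anergic cells had 3 higher and 3 lower than Teff cells, beside 13.9% and 12.7% of all tested genes. The higher were Stat5a, Stat5b and Foxp3, and the lower Foxo1, Runx3 and Tbx21. Foxo1, an activator of Il7r in mouse T cells, had 170.2, 173 and 189 CPM in Anergic, 339, 332 and 343 CPM in Treg, 215, 205 and 208 CPM in Teff and 395, 362 and 399 CPM in Naive libraries. Anergic libraries were lowest, and Foxo1 was lower in Anergic than in Teff cells (log2 difference -0.24, SE 0.0638, adjusted p = 0.00653). In Treg cells Foxo1 was higher than in Teff cells (0.69, SE 0.0629, adjusted p = 4.35e-09). The part of Foxo1 in the Il7r level was not tested. Tbx21 (T-bet), which drives Il2rb in mouse T cells together with Eomes, had 38.7, 28.9 and 29.7 CPM in Anergic, 4.14, 4.18 and 2.47 CPM in Treg, 118, 118 and 115 CPM in Teff and 0.138, 1.61 and 0.152 CPM in Naive libraries. Tbx21 was lower in Treg than in Teff cells (log2 difference -5.01, adjusted p = 1.13e-16), and so was Eomes, at 3.92 CPM in Treg and 14.1 CPM in Teff cells (-1.85, SE 0.207, adjusted p = 1.29e-07). The part of either in the Il2rb level was not tested. Gfi1, a repressor of Il7r in mouse CD8 T cells, averaged 32.3 CPM in Anergic, 29.7 CPM in Treg, 27.9 CPM in Teff and 10.5 CPM in Naive cells. Its part in the Il7r level was not tested either. In the remaining comparisons the counts higher and lower, with the shares of all tested genes, were 4 and 4 for Anergic against Treg (15.6% and 15.3%), 6 and 3 for Anergic against Naive (25% and 21.3%), 5 and 4 for Treg against Teff (15% and 14.1%), 4 and 4 for Treg against Naive (19% and 13.9%), and 5 and 5 for Teff against Naive cells (19.2% and 15.7%).

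The genes whose pattern over the 12 libraries was most like each receptor gene were ranked by the root mean square difference of centred log2 CPM, among genes that averaged 10 CPM or more. Runx3, a RUNX transcription factor, was nearest to Il7r, at 0.169 where Il7r itself spread by 0.674. It had 64.7, 70.4 and 84.1 CPM in Anergic, 52.8, 60.3 and 59.6 CPM in Treg, 177, 179 and 168 CPM in Teff and 106, 110.3 and 109.7 CPM in Naive libraries. Ttc7b and Hsd11b1, the enzyme that regenerates active glucocorticoid, followed. Il4ra was nearest to Gpr146 (0.232, against its own spread of 0.983), then to the ubiquitin ligase Znrf3 and to Smad7, an inhibitor of TGF-beta signalling. Il2ra was nearest to Itgae, the CD103 integrin chain (0.841, against 2.99), then to Coro2a and Sdc4, and Il2rb to the chemokine receptor Ccr4 (0.418, against 2.12), then to the ectonucleotidase Entpd1 and the phosphatase Ptprj. Il9r was nearest to the integrin Itgb1 (0.422, against 2.14), then to Bmp7 and B4galnt4. For Il21r these were Letm2 (0.102, against 0.321), Mthfd1l and Tars2, for Il15ra Plekhb2 (0.150, against 0.532), Plekho2 and Odc1, and for Il2rg Ints11 (0.0691, against 0.159), Actb and Coro1a. The likeness is over libraries of 4 subsets and describes these levels only.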

How the data were processed

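RNA was measured in 12 libraries, 3 for each of 4 subsets taken from the labels. The deposited values are raw counts of reads per gene in a single table, and the authors, per the design text of the series, made them with a pipeline that aligned with HISAT2 and counted with featureCounts. GRCm38 (mm10) is the build that the submitters' processing notes name. The library kit marks strand, per the labels' protocols. Not given in the sources used here are the gene annotation and whether counting used strand. Reads of overlapping genes may therefore have gone to either or to neither. Libraries held 6909035 to 9527897 counts, with a common biological coefficient of variation of 0.0764, and 102 names stood on several entries.

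Counts were tested over the whole table by the quasi-likelihood F test of edgeR 4.0.16 (R 4.3.3), with TMM scaling, the filterByExpr filter (13393 genes kept) and subset means over all 12 libraries. A gene is called where its p, adjusted by Benjamini-Hochberg over all tested genes, is under 0.05, and tests are two-sided. The SE is the log2 fold change divided by the square root of F. CPM uses TMM-scaled library sizes. Lengths and positions came from GENCODE M21 (GRCm38), and promoter windows from RefSeq (GRCm38.p6). The script was tested on simulated data.

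The members and the gene lists were chosen with earlier results of these data known. Lists covered ligands, partner chains, kinases and STATs, feedback inhibitors, cytokine-induced genes, transcription factors, sort markers and markers of T cells, Treg, CD8 T, B, myeloid and dendritic, natural killer and innate-like T cells, and of mast cells with group 2 innate lymphoid cells. Named genes are all 8 members in every comparison, called genes of the pathway lists, the 3 genes of most similar pattern for each member, and genes that adjoin a member or share its exons. Genes below the call, and genes whose levels were needed beside a result, are given as values.

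The chi-square of counts between libraries of a subset was 2.2 to 21.5 times its degrees of freedom, beyond sampling noise, so none was treated as deposited in duplicate. Alternatives were DESeq2 1.42.0, limma 3.58.1 voom, DESeq2 size factors, total-count scaling, removal of 6 entries above 1% of any library (alone and without Anergic replicate 3), fits of only the compared subsets, no filter, 5 CPM in 3 libraries as the filter, the replicate block, the omission of each library, and other gene lengths.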

Additional observations from a re-analysis of the deposited data

How the results depend on the processing

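Of 48 results (8 genes in 6 comparisons), 39 kept their direction and their side of the threshold in all 22 alternatives. The number of members called ranged over 4 to 5 for Anergic against Teff, 5 to 6 for Anergic against Treg and 5 to 6 for Treg against Naive, and stayed at 8, 5 and 7 for Anergic against Naive, Treg against Teff and Teff against Naive. With the longest transcript as length, 21 of 40 mean ratios within libraries moved by more than 1 SD. The values that changed sign were small and uncalled, and the cause was not tested. Il9r in Anergic against Teff was -0.0777 with total-count scaling, -0.0890 with abundant entries and Anergic replicate 3 left out, and -0.0860 to 0.157 on leaving out single libraries. Il21r in Treg against Naive was -0.0175 to 0.0581, and Il2rg in Teff against Naive -0.112 to 0.0475, on leaving out single libraries, and Il2rg there was 0.00847 with total-count scaling.

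Total-count scaling moved the median log2 fold change of all genes by -0.13 in Anergic against Treg. It called 1218 genes higher and 2276 lower in Anergic against Teff (TMM: 1864 and 1702), 1324 and 3027 in Anergic against Treg (2096 and 2054), and 2925 and 1126 in Treg against Naive (2538 and 1858). Without the filter the partner chains called were 2, 2, 1 and 2 in Anergic against Teff, Anergic against Naive, Treg against Teff and Treg against Naive.

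Whether same-numbered libraries share more than a number is not in the labels. Their deviations correlated from -0.05 to 0.18 in 18 pairs, 4 of them over 0.1. Of the 12 libraries 10 correlated best with their own number. The main fit did not use the number. With the replicate block more genes were called in every comparison. They were 3987 in Anergic against Teff (3566 without the block), 4610 in Anergic against Treg (4150) and 6548 in Anergic against Naive (6193). The others were 4343 in Treg against Teff (3894), 4796 in Treg against Naive (4396) and 5077 in Teff against Naive (4670). The block added Il2rg in Anergic against Treg (adjusted p = 0.0115) and Il4ra in Treg against Naive (0.0169). Counts were few in Naive cells for Il9r (5 over 3 libraries), Il2ra (48) and Il15ra (77).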
